A study of Homo sapiens with 12 samples.

Results

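The transcripts described here are those of the mitochondrial genome, taken as every gene whose symbol begins with MT-. They number 37 of the 57773 genes in the count table: 13 mRNAs, 2 rRNAs and 22 tRNAs. RNA was sequenced from A549, a human lung adenocarcinoma cell line, in which GOLM1 was silenced with siGOLM1-1 or siGOLM1-2. The third group received a non-targeting control siRNA. All 3 groups were reverse transfected with Lipofectamine RNAiMAX at 50 nM and collected after 72 h, and each had 4 libraries, which the labels call biological replicates. GOLM1 encodes a membrane protein of the Golgi. The design allows each siRNA to be compared with control and the siRNAs with each other.

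Mitochondria keep a small circular genome. It encodes core subunits of respiratory chain complexes I, III and IV and of ATP synthase, together with the rRNAs and tRNAs needed to translate them. Both of its strands are transcribed into long RNAs that cover many genes. The transcript of the heavy strand carries the rRNAs, most tRNAs and every mRNA except MT-ND6, and tRNAs that lie between the other genes are cut out to release them. The transcript of the light strand carries MT-ND6 and the remaining tRNAs. Mitochondrial mRNAs and rRNAs receive short 3' adenine tails, but MT-ND6 is known to lack such a tail, and the CCA end of tRNAs is not a tail. The libraries were made with a kit that selects polyadenylated RNA, a step that retains RNAs without a tail only in small part.

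Total counts were 41.6 M to 71.3 M per library and averaged 57.3 M with siGOLM1-1, 50.1 M with siGOLM1-2 and 47.4 M in control. GOLM1 held 37.5 to 38.9 CPM (counts scaled to a common library size) with siGOLM1-1 and 44.6 to 53.4 CPM with siGOLM1-2, against 344.5 to 378.1 CPM in control. The epithelial markers KRT8, KRT18, KRT19, EPCAM and CDH1 were detected in every library. KRT8 held 1636 to 2144 CPM with siGOLM1-1, 3345 to 3556 CPM with siGOLM1-2 and 3204 to 4438 CPM in control. KRT18 held 825.6 to 974.3 CPM with siGOLM1-1, 1468 to 1642 CPM with siGOLM1-2 and 1431 to 2146 CPM in control. The siGOLM1-1 libraries lay below both other groups for KRT8 and KRT18. For KRT19 they lay on both sides of control. KRT19 held 51.5 to 141.8 CPM with siGOLM1-1, 154.6 to 330.9 CPM with siGOLM1-2 and 64.5 to 77.7 CPM in control. EPCAM and CDH1 overlapped between all groups. The part of these marker differences in the mitochondrial results was not tested. The leukocyte markers PTPRC and CD3E stayed below 0.05 CPM. CD14 held 9.36 to 15.2 CPM with siGOLM1-1, 10.58 to 12.35 CPM with siGOLM1-2 and 6.71 to 7.33 CPM in control. The endothelial gene CDH5 held 1.07 to 1.82, 0.56 to 0.98 and 0.20 to 0.60 CPM in the same groups, and VWF reached 0.14 CPM. The fibroblast genes did not move together: COL1A1 held 48.1 to 92.8, 21.3 to 29.8 and 32.2 to 70.4 CPM with siGOLM1-1, with siGOLM1-2 and in control. COL3A1 held 0.32 to 1.49, 2.98 to 7.58 and 1.17 to 2.36 CPM in the same groups, and PDGFRA 0.14 to 0.33, 1.78 to 2.03 and 0.42 to 0.64 CPM. The alveolar surfactant gene SFTPA1 had no count. ALDH1A1, which is high in A549, held 9520 to 10870, 4556 to 5588 and 8628 to 9097 CPM in the same order of groups. The other A549 markers examined did not all share this order. AKR1B10 held 1737 to 2198, 3853 to 4155 and 2469 to 2854 CPM. AKR1C1 held 1073 to 1659, 676.6 to 810.6 and 625.9 to 715.8 CPM. NQO1 held 1777 to 2381, 1265 to 1377 and 1127 to 1285 CPM. ALDH3A1 held 985.5 to 1549, 1633 to 2431 and 631.6 to 1156 CPM. The part of these differences was not tested either. Over all genes tested, control replicates 1 and 2 deviated from the control mean in the opposite direction to replicates 3 and 4, with correlations of -0.70 to -0.66 between the pairs and of 0.33 and 0.39 within them. Standard errors against control rest on treating these 4 libraries as independent.

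Of the 37 genes, 25 passed the filter on low counts and were tested: all 13 mRNAs, both rRNAs and 10 tRNAs. Of the 12 tRNAs that did not pass, 9 had no count in any library, 7 of them on the heavy-strand transcript, and MT-TV had 1 count in all. MT-TW had at most 7 counts in a library and MT-TD at most 14. The tRNAs together held 254 to 1067 counts per library, which was 0.0119% to 0.0429% of the mitochondrial counts.

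Mitochondrial transcripts took a smaller part of the counts with siGOLM1-1 than in control. In replicates 1 to 4 they held 3.96%, 3.22%, 4.89% and 4.32% with siGOLM1-1, 6.65%, 5.26%, 7.27% and 4.87% with siGOLM1-2, and 5.14%, 8.13%, 6.22% and 5.63% in control. Every siGOLM1-1 library lay below every control library, while the siGOLM1-2 libraries overlapped with both other groups. The mRNAs alone held 3.39% ± 0.60, 5.10% ± 1.01 and 5.25% ± 1.12 of the counts with siGOLM1-1, with siGOLM1-2 and in control, and the rRNAs 0.70% ± 0.10, 0.92% ± 0.14 and 1.03% ± 0.21 (SD, n = 4 each). Control replicate 2, with the highest share, was also the library with the fewest counts, and the part of depth in this result was not tested. Because RNA of whole cultures was measured, fewer mitochondrial transcripts per cell and fewer cells rich in them cannot be told apart.

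**Figure D1:**
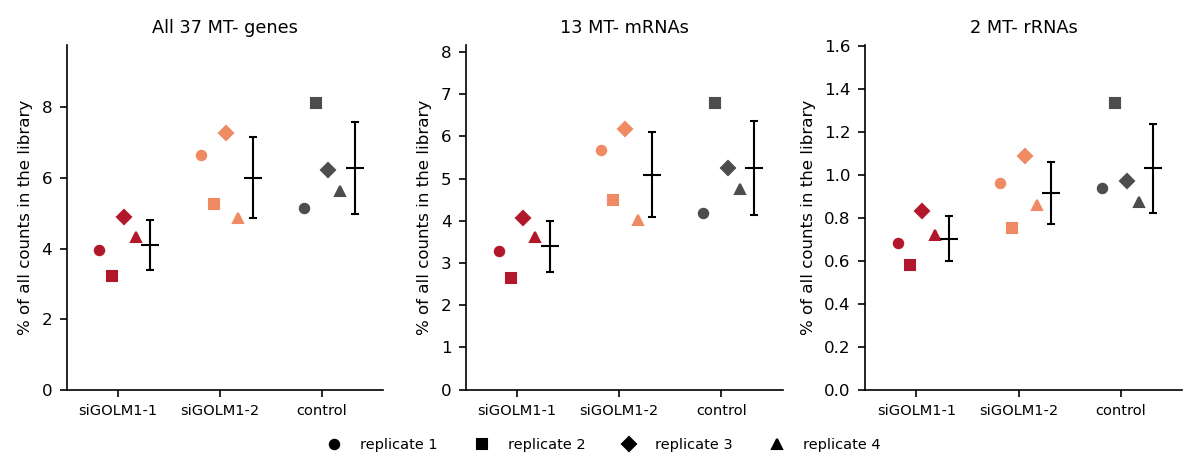
Share of all counts in each library (percent, vertical axis) held by all 37 MT- genes, by the 13 mRNAs and by the 2 rRNAs, for siGOLM1-1, siGOLM1-2 and control. Symbols are the 4 replicates, and the bar beside them is the mean ± SD. For all 37 genes the siGOLM1-1 libraries sit between 3.22% and 4.89%, below the lowest control library at 5.14%.

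With siGOLM1-1, the genes called lower than in control included subunits of complexes I, III and IV and of ATP synthase. Of the 25 genes tested, 13 fell and 0 rose: 9 of 13 mRNAs, both rRNAs and 2 of 10 tRNAs fell. None rose at an unadjusted p under 0.05 in edgeR or with DESeq2 either. These calls are not independent of each other. For all 12 heavy-strand mRNAs, control replicate 2 was the highest control library and siGOLM1-1 replicate 2 the lowest of its group. Among all 17532 genes tested in this comparison, 47.5% were called, 23.8% lower and 23.7% higher, where a call is an adjusted p under 0.05 in edgeR's quasi-likelihood test. The median log2 fold change was -0.60 over the 25 genes and -0.01 over all genes tested. Only 3 of the 25, MT-CO1, MT-RNR2 and MT-TT, had every siGOLM1-1 library below every control library, while 20.4% of all genes tested did.

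The 3 subunits of complex IV, cytochrome c oxidase, all fell with siGOLM1-1. MT-CO2, which carries the copper centre that takes electrons from cytochrome c, held 3225, 3024, 4716 and 4159 CPM with siGOLM1-1, against 4363, 7847, 6094 and 5721 CPM in control. The difference was 1.59-fold (log2 fold change -0.67, SE 0.18, adjusted p = 0.006443). MT-CO3, a structural subunit, held 4056, 3794, 5449 and 5400 CPM with siGOLM1-1 and 5302, 8909, 7818 and 6945 CPM in control, a log2 fold change of -0.63 (SE 0.18, adjusted p = 0.01104). The groups of both genes overlapped through control replicate 1, the lowest control library. MT-CO1, the catalytic subunit, held 8640, 6851, 9951 and 9513 CPM with siGOLM1-1, against 10120, 15920, 12640 and 11890 CPM in control. Its groups did not overlap, and its log2 fold change was -0.53 (adjusted p = 0.02109).

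MT-ATP6, the subunit of ATP synthase that forms the proton path, held 2447, 2155, 3218 and 2522 CPM with siGOLM1-1, against 3144, 5587, 4166 and 3659 CPM in control. The difference was 1.60-fold (log2 fold change -0.68, SE 0.18, adjusted p = 0.007984), again with only control replicate 1 inside the siGOLM1-1 range. MT-ATP8, the other ATP synthase subunit, held 176.1 to 275.5 CPM with siGOLM1-1 and 269.3 to 493.9 CPM in control, and its log2 fold change was -0.69 (adjusted p = 0.02163). These genes share 46 bases, since the reading frame of MT-ATP6 opens inside MT-ATP8. MT-ND4L and MT-ND4 share 7 bases in the same way. Each pair is released as 1 mRNA, so reads in the shared bases cannot be assigned to 1 gene of a pair. The transcripts in GENCODE 29 (GRCh38, forward strand) show both overlaps. Capitals mark the bases that also belong to the next gene, and the MT-ND4L line gives its last 30 bases.
MT-ATP8: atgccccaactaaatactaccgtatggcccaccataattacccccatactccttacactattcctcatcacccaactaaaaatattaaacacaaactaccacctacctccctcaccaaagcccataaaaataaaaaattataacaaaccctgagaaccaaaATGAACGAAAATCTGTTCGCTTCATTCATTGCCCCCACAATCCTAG
MT-ND4L: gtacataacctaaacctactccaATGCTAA

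MT-CYB, cytochrome b and the sole subunit of complex III encoded in the mitochondria, held 2319, 1987, 3190 and 3062 CPM with siGOLM1-1, against 2808, 4669, 4366 and 3902 CPM in control. It fell with a log2 fold change of -0.58 (SE 0.20, adjusted p = 0.029). Of the 7 subunits of complex I, the NADH dehydrogenase, 3 fell: MT-ND4L (log2 fold change -0.68), MT-ND2 (-0.60) and MT-ND4 (-0.57), with adjusted p of 0.02154, 0.01961 and 0.01701. The other 4 were not called. Their log2 fold changes were -0.49 for MT-ND1 (adjusted p = 0.05671), -0.39 for MT-ND5 (adjusted p = 0.093), -0.34 for MT-ND3 (adjusted p = 0.1787) and -0.85 for MT-ND6 (SE 0.41, adjusted p = 0.1055). Without control replicate 2 the values of MT-ND1, MT-ND5 and MT-ND3 were -0.31, -0.18 and -0.12 (adjusted p of 0.2068, 0.3859 and 0.601).

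Of the genes called with siGOLM1-1, MT-CO2 and MT-ATP6 were called in each of 22 alternatives, with log2 fold changes of -0.79 to -0.50 and -0.80 to -0.49. MT-CO3 lost its call in 1, with control replicates 1 and 2 alone (adjusted p = 0.05187). Without control replicate 2, the control library highest in all 12 heavy-strand mRNAs, these 3 genes alone were called. The same 3 were called without siGOLM1-1 replicate 2, the library lowest in its group for all 12. MT-CYB also lost its call without control replicate 3 or 4 or siGOLM1-1 replicate 1, at log2 fold changes of -0.52, -0.58 and -0.52. MT-ATP8 lost its call without siGOLM1-1 replicate 1 or 4, at -0.67 in both cases, and MT-ND4L without siGOLM1-1 replicate 4, at -0.675. MT-ND1 gained a call without control replicate 1, siGOLM1-1 replicate 3 or siGOLM1-2 replicate 3 or 4. MT-ND3 gained a call without siGOLM1-1 replicate 3, and MT-ND6 without control replicate 3 or siGOLM1-1 replicate 1. A fit restricted to control replicates 3 and 4 called 5 genes, and a fit restricted to control replicates 1 and 2 called 14. The nuclear-retained RNA NEAT1 was higher with siGOLM1-1, at 734.2 to 1619 CPM against 581.9 to 733.3 CPM in control (log2 fold change 0.64, adjusted p = 0.02458). MALAT1 held 246.8 to 408.3 CPM against 148 to 286 CPM (log2 fold change 0.66, adjusted p = 0.05167). Their part in the mitochondrial result was not tested.

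**Figure D2:**
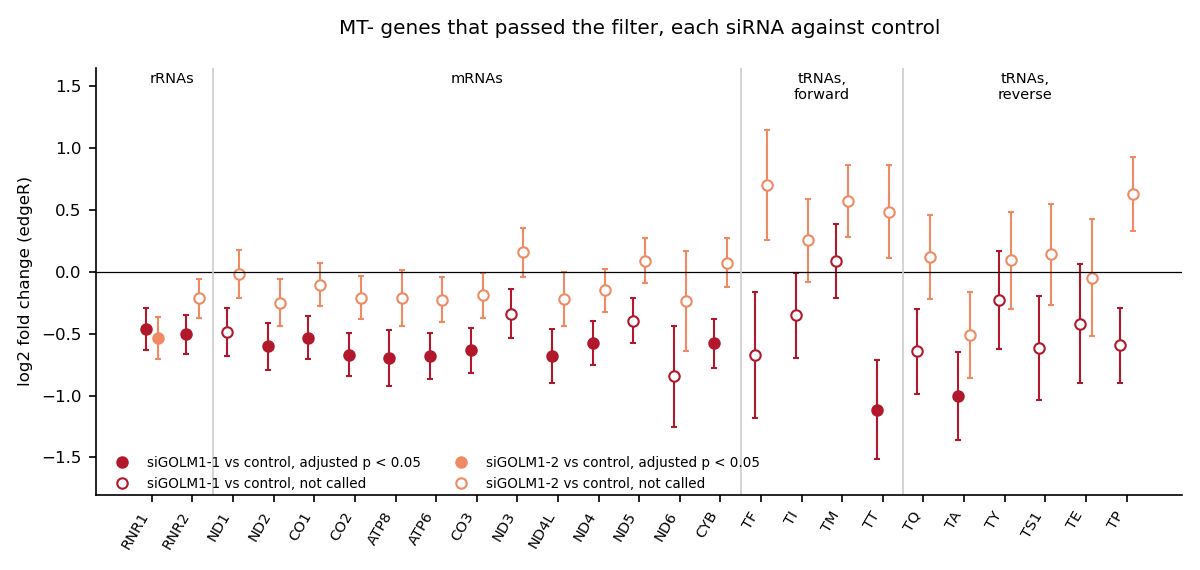
Log2 fold change (vertical axis) with its standard error for the 25 MT- genes tested, siGOLM1-1 against control in dark red and siGOLM1-2 against control in orange. Filled circles have an adjusted p under 0.05, and genes run from rRNAs to mRNAs to tRNAs of the forward (heavy-strand) and reverse (light-strand) transcript. With siGOLM1-1 all mRNAs lie between -0.85 and -0.34, and with siGOLM1-2 between -0.25 and 0.16.

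With siGOLM1-2, 1 of the 25 genes was called, the rRNA MT-RNR1, which fell. In this comparison 45% of all genes tested were called, 23.2% lower and 21.8% higher. None of the 25 had siGOLM1-2 libraries all below the control libraries, against 23.3% of all genes tested. The median log2 fold change was -0.05 over the 25 genes and -0.01 over all. Log2 fold changes of the 13 mRNAs ran from -0.25 to 0.16, and the 95% intervals of the 12 on the heavy strand lay between -0.69 and 0.58. Differences of the size called with siGOLM1-1 therefore lie within these limits for some of the mRNAs.

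The direct comparison of the siRNAs tests their difference. With siGOLM1-1, 8 of the 25 genes were lower than with siGOLM1-2 and 0 were higher, also at an unadjusted p under 0.05 and with DESeq2. Here too the calls are not independent of each other. In this comparison 54.4% of all genes tested were called, 26.5% lower and 27.9% higher. The 8 were MT-CO1, MT-CO2, MT-ND3, MT-ND5, MT-CYB and the tRNA genes MT-TF, MT-TT and MT-TP. The median log2 fold change was -0.48 over the 25 genes and 0.02 over all. MT-CYB and MT-TP were the 2 genes with no overlap of libraries, against 24.2% of all genes tested.

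The highest siGOLM1-1 library of MT-CYB, at 3190 CPM, lay just below the siGOLM1-2 libraries, at 4523, 3530, 5319 and 3219 CPM. The log2 fold change between the siRNAs was -0.65 (SE 0.20, adjusted p = 0.0136), and without siGOLM1-2 replicate 3 it was -0.51 (adjusted p = 0.05001). The other called mRNAs had log2 fold changes of -0.50 for MT-ND3, -0.48 for MT-ND5, -0.46 for MT-CO2 and -0.43 for MT-CO1, with adjusted p between 0.03788 and 0.04879. Each of these 4 overlapped between the groups and lost its call in 5 to 10 of 20 alternatives. The count of called genes was 14 without siGOLM1-2 replicate 4 and 13 without control replicate 1, without control replicate 2 or without siGOLM1-1 replicate 3. It was 5 without siGOLM1-1 replicate 4 or without siGOLM1-2 replicate 2. It was 4 without siGOLM1-1 replicate 2, 3 without siGOLM1-2 replicate 1 and 2 without siGOLM1-2 replicate 3. DESeq2 called 13.

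MT-RNR1, the rRNA of the small mitochondrial ribosomal subunit, held 769.6, 793.1, 926.9 and 799.3 CPM with siGOLM1-1. It held 870.4, 544.3, 935.9 and 767.3 CPM with siGOLM1-2 and 1327, 1358, 964.3 and 876.7 CPM in control. Control replicates 1 and 2 were the highest of all 12 libraries, and the groups overlapped. MT-RNR1 fell with both siRNAs, by 0.46 on the log2 scale with siGOLM1-1 (SE 0.17, adjusted p = 0.0389) and by 0.54 with siGOLM1-2 (SE 0.17, adjusted p = 0.01998). Both values share the control libraries. Neither was called without control replicate 1 or without control replicate 2, with adjusted p of 0.05671 to 0.1273. The siGOLM1-1 call was also lost without siGOLM1-1 replicate 1, 2 or 4, and the siGOLM1-2 call without siGOLM1-2 replicate 2. Between the siRNAs the log2 fold change was 0.08 (adjusted p = 0.7237).

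MT-RNR2, the rRNA of the large subunit, held 6159, 5363, 7768 and 6710 CPM with siGOLM1-1, 8223, 6614, 9394 and 7541 CPM with siGOLM1-2, and 7776, 11990, 9059 and 8026 CPM in control. It fell with siGOLM1-1, with no overlap (log2 fold change -0.50, SE 0.16, adjusted p = 0.01763), and had a log2 fold change of -0.21 with siGOLM1-2 (adjusted p = 0.29), which was -0.04 without control replicate 2 (adjusted p = 0.8398). The siGOLM1-1 call was lost without control replicate 2 (adjusted p = 0.0737) and without siGOLM1-1 replicate 2 (adjusted p = 0.05614).

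Ratios within a library do not depend on how libraries are scaled, and they describe the mitochondrial transcripts relative to each other. MT-RNR1 held 12.5, 14.8, 11.9 and 11.9 counts per 100 of MT-RNR2 with siGOLM1-1. With siGOLM1-2 the ratio was 10.6, 8.23, 9.96 and 10.2, and in control it was 17.1, 11.3, 10.6 and 10.9. The siGOLM1-2 libraries lay below all siGOLM1-1 and all control libraries, by a margin of 10.58 against 10.64 for the nearest control library. These ratios were not tested, since they were examined as descriptions of the pool.

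The shares of the complexes in the mitochondrial mRNA pool were compared without a test. Complex IV mRNAs took 48.6% ± 1.4 of the mitochondrial mRNA counts with siGOLM1-1, 48.1% ± 1.0 with siGOLM1-2 and 49.1% ± 1.1 in control (SD, n = 4 each). Complex I mRNAs took 36.1% ± 1.4, 35.5% ± 0.8 and 35.0% ± 1.4 in the same order of groups, and both shares overlapped between all groups. ATP synthase mRNAs took 7.22% to 8.29% with siGOLM1-1, 7.66% to 8.14% with siGOLM1-2 and 8.18% to 8.94% in control, with the siGOLM1-2 libraries all below the control libraries. The share of MT-CYB, which is that of complex III, was 6.98%, 7.06%, 7.50% and 8.11% with siGOLM1-1, 8.42%, 8.24%, 9.06% and 8.28% with siGOLM1-2, and 6.91%, 6.87%, 8.05% and 8.03% in control. The siGOLM1-2 libraries lay above both other groups. MT-ATP6 took 6.68% to 7.66% with siGOLM1-1, 7.17% to 7.46% with siGOLM1-2 and 7.53% to 8.21% in control, where the siGOLM1-2 and control libraries did not overlap. MT-ND1 took 5.93% to 6.27% with siGOLM1-1, 5.70% to 6.66% with siGOLM1-2 and 5.30% to 5.81% in control, where the siGOLM1-1 and control libraries did not overlap. MT-CYB, MT-ATP6 and MT-ND1 are given because some of their groups did not overlap. The shares of all other mitochondrial mRNAs overlapped between all groups. MT-ATP6 makes up most of the ATP synthase share, so those values are not separate results.

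**Figure D3:**
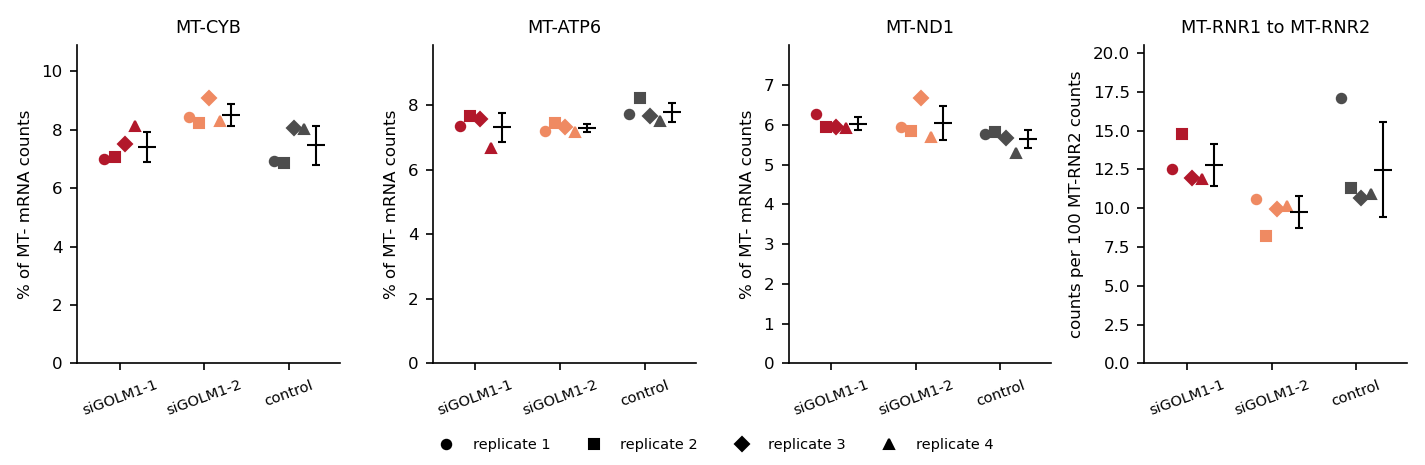
MT-CYB, MT-ATP6 and MT-ND1 as percent of the counts of the 13 mitochondrial mRNAs, and MT-RNR1 counts per 100 MT-RNR2 counts (vertical axes), in each library of siGOLM1-1, siGOLM1-2 and control. Symbols are replicates and bars the mean ± SD. The siGOLM1-2 libraries lie highest for MT-CYB, between 8.24% and 9.06%, and lowest for the rRNA ratio, between 8.23 and 10.58. The shares of the mRNAs not shown overlapped between all groups.

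Per length of transcript, the order of levels was nearly the same in all libraries. In control the highest levels were 9239 ± 1943 CPM per kb for MT-CO3, 8781 ± 2098 for MT-CO2 and 8199 ± 1574 for MT-CO1 (SD, n = 4), and these neighbours overlapped. MT-ATP6, MT-RNR2 and MT-ND4 followed at 5744 to 6078 CPM per kb, then MT-ND2, MT-CYB and MT-ND1 at 3123 to 3724. MT-ND4L was in place 10 in every library, at 1439 ± 371 CPM per kb with siGOLM1-1, 1983 ± 513 with siGOLM1-2 and 2306 ± 514 in control. MT-ND4 held 5744 in control, and MT-ATP8 held 1683 against 6078 for MT-ATP6. Each of these pairs is released as 1 mRNA, so these places do not rank separate mRNAs. The part of read assignment in these gaps was not tested. MT-RNR1 lay in place 11 to 14, and libraries selected for tails do not give rRNA in proportion to its amount in cells. MT-ND6 was last in all 12 libraries, at 109 ± 50 CPM per kb with siGOLM1-1, 166 ± 53 with siGOLM1-2 and 195 ± 116 in control.

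MT-ND6, a complex I subunit and the mRNA of the light strand, held 94.9, 54.6, 42.4 and 36.3 CPM with siGOLM1-1, 98.2, 82.6, 116.6 and 50.9 CPM with siGOLM1-2, and 187.6, 105, 50.1 and 67.7 CPM in control. Per 100000 counts of the other 12 mRNAs it held 286.5, 194.5, 99.7 and 96.2 with siGOLM1-1. The ratio was 183.1, 193.2, 199.0 and 131.2 with siGOLM1-2 and 463.8, 154.6, 92.5 and 139.6 in control. Control replicate 1 stood apart, and the groups overlapped with and without it. The control mean of 212.6 rests on that library, since the other 3 ran from 92.5 to 154.6. Without it the log2 fold change of MT-ND6 against control was -0.38 with siGOLM1-1 (adjusted p = 0.4095) and 0.23 with siGOLM1-2 (adjusted p = 0.6341).

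The 6 tested tRNAs of the light strand held, in sum, 10.8 to 28.0 counts per 100000 of the 12 heavy-strand mRNAs with siGOLM1-1, 19.0 to 27.1 with siGOLM1-2 and 11.1 to 41.6 in control. Relative to these mRNAs, control replicate 1 was the highest control library for all 7 light-strand genes tested and the highest of all libraries for 6 of them. It was also the highest control library for the 4 heavy-strand tRNAs tested, MT-TF, MT-TI, MT-TM and MT-TT, so this trait did not separate the strands. For the mRNAs of the heavy strand the same library was the lowest control library in 10 of 12 by CPM. Between the highest and lowest library, CPM of light-strand genes ranged 3.79-fold to 5.17-fold and CPM of heavy-strand mRNAs 2.19-fold to 3.11-fold. The 4 heavy-strand tRNAs spanned the light-strand range, at 8.21-fold for MT-TF, 6.70-fold for MT-TT, 2.59-fold for MT-TI and 2.16-fold for MT-TM. The tRNAs had few counts, such as 6 to 31 per library for MT-TY and 10 to 40 for MT-TA, while MT-ND6 had 1713 to 9371. The part of low counts in these ranges was not tested.

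Other RNAs without a poly(A) tail moved among the libraries too. RN7SK, a nuclear gene for a small RNA that restrains transcription elongation, held 7.95, 8.57, 3.00 and 3.66 CPM with siGOLM1-1. It held 11.8, 5.09, 7.26 and 4.83 CPM with siGOLM1-2 and 9.19, 3.34, 2.56 and 2.01 CPM in control, where replicate 1 was the highest. It was called in neither comparison with control, whereas RN7SL1, RN7SL2 and RPPH1 were higher with siGOLM1-2 than in control, by 0.71, 0.87 and 0.98 on the log2 scale (adjusted p of 0.01724, 0.0191 and 0.01634). These 4 RNAs and RMRP were chosen after the values of MT-ND6 had been seen. Their part in the values of MT-ND6 and of the tRNAs was not tested.

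**Figure D4:**
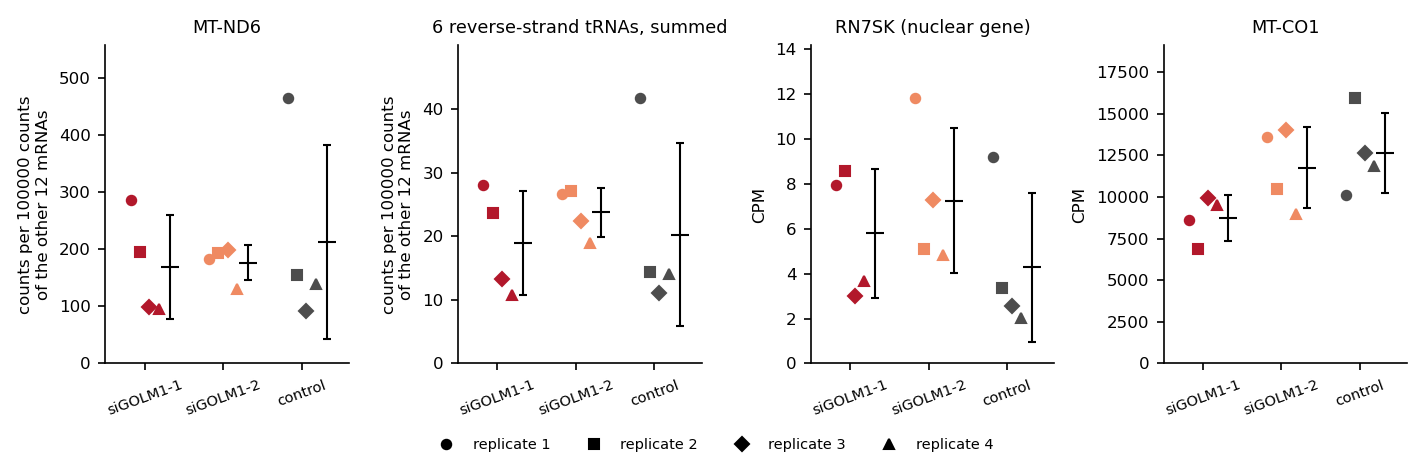
MT-ND6 and the summed reverse-strand (light-strand) tRNAs per 100000 counts of the other 12 mRNAs, the nuclear RNA RN7SK in CPM and the heavy-strand mRNA MT-CO1 in CPM (vertical axes), by group. Symbols are replicates and bars the mean ± SD. Control replicate 1 is highest in its group in the first 3 panels, at 463.8 for MT-ND6, and lowest in its group for MT-CO1, at 10120 CPM.

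Among the tRNA genes, 2 were called with siGOLM1-1 against control and 3 between the siRNAs. These genes are shown from the transcripts in GENCODE 29 (GRCh38), with the anticodon in capitals. MT-TF (phenylalanine) and MT-TT (threonine) are on the forward strand of the reference, and MT-TA (alanine) and MT-TP (proline) are on the reverse strand. Reads from the long precursors can fall in these short genes, so a count does not show a mature tRNA.
MT-TF: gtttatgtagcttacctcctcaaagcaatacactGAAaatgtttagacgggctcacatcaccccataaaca
MT-TA: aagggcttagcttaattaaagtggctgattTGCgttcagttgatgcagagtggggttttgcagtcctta
MT-TT: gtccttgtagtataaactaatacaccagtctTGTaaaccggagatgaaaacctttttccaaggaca
MT-TP: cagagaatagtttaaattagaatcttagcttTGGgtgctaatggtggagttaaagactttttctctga

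MT-TT and MT-TP lie side by side after MT-CYB, on opposite strands, and close the gene-bearing part of the genome. MT-TT held 1.36, 0.79, 1.16 and 0.68 CPM with siGOLM1-1, 4.38, 4.54, 2.00 and 1.29 CPM with siGOLM1-2, and 3.08, 2.50, 1.57 and 1.57 CPM in control. By CPM each siGOLM1-1 library was below each control library, and siGOLM1-2 replicates 1 and 2 were the highest of all. Per 100000 counts of the 12 heavy-strand mRNAs, MT-TT held 1.80 to 4.12 with siGOLM1-1 and 2.89 to 7.62 in control. With siGOLM1-2 it held 3.33 to 10.6, and on that scale all groups overlapped. The gene was lower with siGOLM1-1 than with siGOLM1-2 by 1.60 on the log2 scale (SE 0.39, adjusted p = 0.003939). Against control its log2 fold change was -1.11 for siGOLM1-1 (SE 0.40, adjusted p = 0.03489), a call of 2.16-fold lower, and with siGOLM1-2 its log2 fold change was 0.49 (adjusted p = 0.3166). The call with siGOLM1-1 was lost when control replicate 1 or 2 or siGOLM1-1 replicate 2, 3 or 4 was left out, with adjusted p of 0.05417 to 0.1016.

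MT-TP held 2.03, 1.83, 1.72 and 1.10 CPM with siGOLM1-1, 5.23, 3.54, 4.42 and 2.52 CPM with siGOLM1-2, and 4.30, 1.83, 1.80 and 2.19 CPM in control. By CPM all siGOLM1-1 libraries were below all siGOLM1-2 libraries, and control overlapped with both. Per 100000 counts of the 12 heavy-strand mRNAs, MT-TP held 2.919 to 6.504 with siGOLM1-1 and 6.502 to 9.743 with siGOLM1-2. On that scale the siRNA groups overlapped. The log2 fold change between the siRNAs was -1.22 (SE 0.30, adjusted p = 0.003812). MT-TT and MT-TP kept this call in each of 20 alternatives, with log2 fold changes of -1.85 to -1.34 and -1.38 to -1.06. Against control MT-TP was not called with either siRNA, at log2 fold changes of -0.60 with siGOLM1-1 (adjusted p = 0.1268) and 0.63 with siGOLM1-2 (adjusted p = 0.102). Without control replicate 1 the siGOLM1-1 value was -0.21 (adjusted p = 0.532) and the siGOLM1-2 value 1.01 (adjusted p = 0.006216), and without siGOLM1-2 replicate 4 it was 0.79 (adjusted p = 0.04605). RN7SL1 was also lower with siGOLM1-1 than with siGOLM1-2, by 0.64 on the log2 scale (adjusted p = 0.02362), and its part in these tRNA values was not tested.

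MT-TF and MT-TA rest on few counts. MT-TF had 2 to 17 counts per library and was lower with siGOLM1-1 than with siGOLM1-2 by 1.38 on the log2 scale (SE 0.47, adjusted p = 0.02243). Without siGOLM1-1 replicate 1, 3 or 4, or siGOLM1-2 replicate 1, 2 or 3, it was not called, with adjusted p of 0.05047 to 0.0655. MT-TA had 10 to 40 counts per library and held 0.27, 0.26, 0.20 and 0.30 CPM with siGOLM1-1, against 0.80, 0.67, 0.23 and 0.38 CPM in control. Control replicates 1 and 2 were high and the groups overlapped. It was 2.01-fold lower (SE 0.36 on the log2 scale, adjusted p = 0.0324), and it was not called without control replicate 1 or 2, with log2 fold changes of -0.711 and -0.855, nor without siGOLM1-1 replicate 1, 2 or 3.

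**Figure D5:**
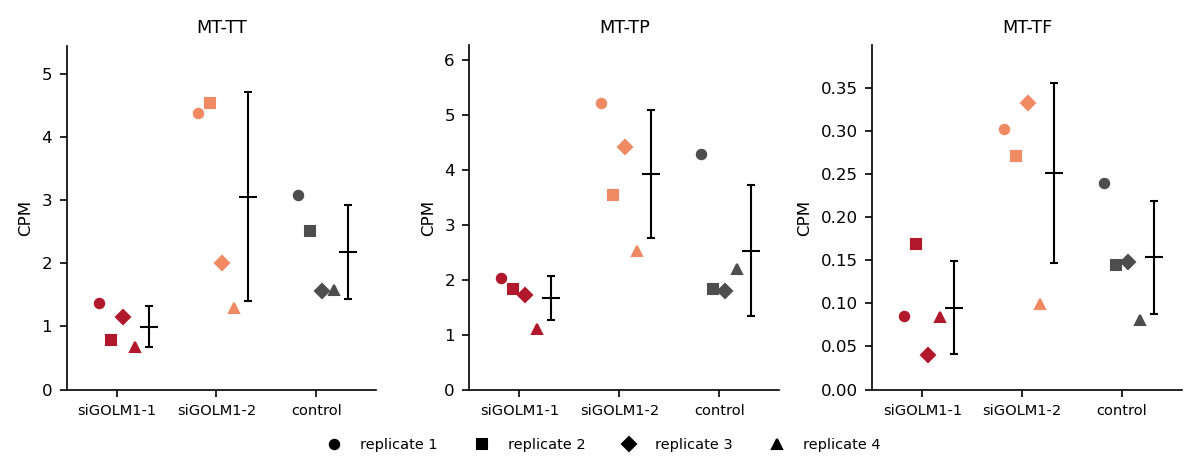
CPM (vertical axis) of MT-TT, MT-TP and MT-TF in each library of siGOLM1-1, siGOLM1-2 and control. Symbols are replicates and bars the mean ± SD. MT-TP lies between 1.10 and 2.03 CPM with siGOLM1-1 and between 2.52 and 5.23 CPM with siGOLM1-2.

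The mitochondrial genome is transcribed, copied and processed by nuclear-encoded proteins. A list of such genes with 57 entries was examined and all 57 were tested. KIAA0391 is counted under separate gene IDs, with control means of 0.58 and 0.56 CPM. With siGOLM1-1 the first entry was called lower (adjusted p = 0.005663) and the second was not called (adjusted p = 0.07192). With siGOLM1-1 4 of them rose and 22 fell, and with siGOLM1-2 4 rose and 22 fell as well, which is 45.6% called in each comparison with control. Between the siRNAs 13 were higher and 15 lower with siGOLM1-1, 49.1% of the list. The shares called over all genes tested were 47.5%, 45% and 54.4% in these comparisons. By direction, 23.8%, 23.2% and 26.5% of all genes tested were lower and 23.7%, 21.8% and 27.9% higher.

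DGUOK, a kinase that supplies deoxynucleotides for mitochondrial DNA, held 20.2 to 23.8 CPM with siGOLM1-1, 60.3 to 74.1 CPM with siGOLM1-2 and 52.4 to 59.7 CPM in control. The siGOLM1-1 level was 2.67-fold lower than in control (log2 fold change -1.41, adjusted p = 2.5e-08). The siGOLM1-2 level had a log2 fold change of 0.18 (adjusted p = 0.08471), and the direct comparison of the siRNAs gave -1.59 (adjusted p = 5.26e-09). TBRG4, an RNA-binding protein of the FASTK family, fell with both siRNAs, with log2 fold changes of -0.82 for siGOLM1-1 and -0.37 for siGOLM1-2. The mitochondrial topoisomerase TOP1MT rose with both (0.80 and 0.36), as did TFB1M, an rRNA methyltransferase (0.62 and 0.62). The mTERF-family gene MTERFD1 fell with both (-0.54 and -0.80). The transcription factor YY1 rose with siGOLM1-1 (0.50) and had 0.11 with siGOLM1-2 (adjusted p = 0.1182). MTERFD3 fell with siGOLM1-2 (-0.67) and had -0.17 with siGOLM1-1 (adjusted p = 0.1653). GABPA, a transcription factor of nuclear respiratory genes, fell with siGOLM1-2 (-0.71) and had 0.01 with siGOLM1-1 (adjusted p = 0.9203). These comparisons share the control libraries. MRM1, another rRNA methyltransferase, was lower with siGOLM1-1 than with siGOLM1-2 by 0.82 on the log2 scale. Against control MRM1 fell with siGOLM1-1 (-0.40) and rose with siGOLM1-2 (0.42). TFAM, which packages and activates transcription of mitochondrial DNA, was singled out after its values had been seen. It held 38.6 to 56.3 CPM with siGOLM1-1, 73.1 to 84.1 CPM with siGOLM1-2 and 51.0 to 61.2 CPM in control. Its log2 fold change was -0.66 between the siRNAs (adjusted p = 0.0002476). Against control it was -0.18 with siGOLM1-1 (adjusted p = 0.205) and 0.48 with siGOLM1-2 (adjusted p = 0.003713). Between the siRNAs 13 of the list were higher and 15 lower with siGOLM1-1. Those higher included POLRMT, TEFM, MTERF and NRF1, by 0.21, 0.245, 0.32 and 0.72. The part of these genes in the mitochondrial results was not tested.

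The authors' deposited tables list 27 of the 37 genes. In the authors' deposited table for siGOLM1-1 14 of them are called at an adjusted p under 0.05. These are the 13 called by edgeR and MT-ND1, which has a log2 fold change of -0.47 and an adjusted p of 0.04448 in the authors' deposited table. For siGOLM1-2 the authors' deposited table calls 1, MT-RNR1, the gene that edgeR called. Copies of mitochondrial genes in the nuclear genome could share reads with the MT- genes. The count table holds 188 such copies, of which 38 had a count, and together they held 76 to 205 counts per library.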

How the data were processed

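Per the labels, total RNA of 12 A549 cultures was made into paired-end TruSeq Stranded mRNA libraries. Per the submitters' processing notes, bcl2fastq 2.20, STAR 2.7.3, DESeq2 1.24.0 and the build hg19 were used. The read counter, its annotation and its strand setting are not given in the sources used here, so overlapping and antisense mitochondrial genes are uncertain. The deposited table holds raw counts per gene. For each gene the authors' deposited result tables give, by their headers, the normalised signal averaged over libraries, log2 fold change, standard error, Wald score, p-value and adjusted p. Only their calls and log2 fold changes were set beside those computed here.

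All 12 libraries entered 1 edgeR 4.0.16 quasi-likelihood fit (R 4.3.3) without a replicate block. The filter was filterByExpr, which kept 17532 genes, and scaling was by TMM. P-values were Benjamini-Hochberg adjusted over all genes tested and called under 0.05, and standard errors are on the log2 scale with 9 residual degrees of freedom among libraries before the spread was moderated. CPM was computed from the deposited counts and the TMM-scaled library totals. Alternatives changed the scaling, the filter, the tool (DESeq2 1.42.0), the libraries in the fit or the block. The fit was tested on simulated data. Strand, length and sequence came from GENCODE 29 by gene ID (37 of 37 matched), without coordinates because builds differ. Named were the MT- genes, GOLM1, marker genes, MALAT1, NEAT1 and the nuclear list members with the smallest p (4 per comparison with control, 2 between siRNAs). Outside this rule, TFAM, POLRMT, TEFM, MTERF, NRF1, RN7SK, RN7SL1, RN7SL2, RMRP and RPPH1 were named after values had been seen. The members and lists were chosen with earlier results of these data known. The nuclear list covers mitochondrial transcription, replication, RNA processing and biogenesis regulators.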

Additional observations from a re-analysis of the deposited data

Results flagged for a closer look

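In groups of 4 libraries, a value was singled out when its gap to the nearest other library exceeded 0.829 of the group's range, Dixon's critical value. Of 195 groups examined 17 had such a library, and chance alone gives about 1 in 20 for a single group. The groups are not independent, since the same counts enter as CPM, share, ratio and sum. The number flagged therefore does not show an excess over chance.

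Control replicate 1 accounted for most. It was high for MT-ND6, at 463.8 counts per 100000 of the other mRNAs and 0.462% of the mitochondrial mRNA counts, and for the summed light-strand tRNAs (41.6 per 100000). On the same scale it was high for MT-TQ (17.3), MT-TE (4.46) and MT-TT (7.62), and MT-TP held 4.30 CPM there. MT-RNR1 held 32.7 counts per 1000 mRNA counts and 17.1 per 100 MT-RNR2 counts in that library.

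Among the siGOLM1-1 libraries, replicate 1 was high for MT-TS1 (1.38 CPM), MT-TE (1.28 CPM) and the MT-ND1 share of mRNA counts (6.27%), and replicate 3 for MT-TI (0.588 CPM). Among the siGOLM1-2 libraries, replicate 4 was low for MT-TM (0.179 CPM), replicate 2 high for MT-TM per 100000 mRNA counts (0.634) and replicate 3 low for the MT-ND5 share (5.23%). In control, replicate 3 was low for the MT-ATP8 share (0.497%).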

How the results depend on the processing

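The number of mitochondrial genes called was the result that moved most. For siGOLM1-1 against control (13 called) it was 7 with no filter on low counts and 5 with control replicates 3 and 4 only, and leaving out 1 library gave 3 to 14. For siGOLM1-2 against control (1 called) it was 0 with no filter, where 1 gene had an unadjusted p under 0.05 in edgeR and DESeq2 called 1 gene on the filtered table. It was 2 with the replicate block (MT-RNR1 lower, MT-TP higher), 2 with control replicates 1 and 2 only, both lower, and 2 with control replicates 3 and 4 only, both higher. Leaving out 1 library gave 0 to 2: 0 without control replicate 2 or siGOLM1-2 replicate 2, and 2 without siGOLM1-2 replicate 4. For siGOLM1-1 against siGOLM1-2 (8 called) it was 16 with library totals alone, 3 with no filter, 14 with only these groups in the fit and 13 with DESeq2, and 2 to 14 without 1 library. The direction of the median over the mitochondrial genes was unchanged for siGOLM1-1 against control and between the siRNAs in all alternatives. For siGOLM1-2 against control the median of -0.047 turned positive in some. It was 0.017 with library totals alone and 0.257 with control replicates 3 and 4 only. It was 0.047 without control replicate 2 and 0.03 without siGOLM1-2 replicate 4.

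Among the genes followed through the alternatives, signs changed only for genes that were not called. Some genes close to no change were not followed. With siGOLM1-2 against control these included MT-ND1 at -0.015 and MT-TE at -0.047, and MT-ND1 has 0.001 in the authors' deposited table. For siGOLM1-2 against control, MT-ND5 had a log2 fold change of -0.10 with control replicates 1 and 2 only, and -0.006 (without control replicate 4) to 0.317 without 1 library. MT-ND6 had 0.58 with control replicates 3 and 4 only, and -0.466 to 0.23 (without control replicate 1) without 1 library. MT-CYB had -0.067 to 0.187 without 1 library, and was negative without control replicate 1 or siGOLM1-2 replicate 3. Between the siRNAs, MT-RNR1 had -0.055 with library totals alone, and -0.06 (without siGOLM1-2 replicate 2) to 0.177 without 1 library. The causes were not tested.

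Library totals alone shifted the median of all genes by -0.13 between the siRNAs, and 37.4% of called genes were then higher, compared with 51.2% under TMM. For siGOLM1-2 against control that share was 59.2%, compared with 48.4%. The replicate block called 15 genes for siGOLM1-1 and 10 between the siRNAs. Among the genes followed through all alternatives, it did not call MT-RNR1 (-0.458, adjusted p = 0.05314) for siGOLM1-1 against control and called MT-ND6 (-0.814, adjusted p = 0.03881) and MT-TP (-0.566, adjusted p = 0.04566), both lower. Between the siRNAs it did not call MT-CO1 (-0.422, adjusted p = 0.06536). Of 12 pairs of libraries with the same number, 3 had deviations correlated above 0.1, and 4 of 12 libraries correlated best with their own number, so the numbers were not taken as pairs. Counts over all genes and over the nuclear list stayed within 1.5 times of their values in all alternatives run. Without 1 library the nuclear list had 25 to 28, 22 to 29 and 24 to 28 called genes in the 3 comparisons. The low counts of the tRNA genes limit the precision of their values.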
